A study of Homo sapiens with 18 samples.

Results

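The desmosome genes measured here are DSC2, DSC3, DSG2, DSP, JUP, PKP2, PKP3 and PKP4, 8 of the 19775 genes that the arrays covered with a probe set of their own. They were selected on the rise of DSC2 after knockdown of ATAD2 in 2 of 3 cell lines. The knockdown response of DSC2 is therefore given as a description without a test. Tests are confined to the other 7 genes and to differences between lines in control cells. The selection did not compare the lines, but the control values of DSC2 entered its rise, so its levels are not independent of the selection. All probe sets annotated to exactly 1 of these genes were taken, 20 of 41097. DSC2 had 4, DSC3 had 3, DSG2, PKP2 and PKP3 had 2 each, DSP and JUP had 1 each, and PKP4 had 5. A probe set is the group of short probes from which an Affymetrix array derives 1 signal, and where a gene had several, the one with the highest mean over all arrays is called its lead probe set.

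ATAD2 is a bromodomain ATPase of chromatin, and the series asked what its loss does in hepatocellular carcinoma. The established liver cancer lines Hep3B, SNU449 and PLC (PLC/PRF/5), grown in RPMI, were transfected by means of Lipofectamine RNAiMax with siRNA against ATAD2 or with a non-targeting control siRNA. Each line gave 3 arrays per siRNA, labelled as biological replicates, 18 arrays in 6 groups. The treatment label of the ATAD2 arrays reads "Knockout", whereas the design and the protocol describe siRNA, and they are called siRNA arrays below. The number of siRNAs and the hours after transfection are not given in the sources read.

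Desmosomes are the junctions that tie the intermediate filaments of neighbouring epithelial cells together. Desmogleins and desmocollins are the cadherins that meet between the cells, plakoglobin (JUP) and the plakophilins bind their tails, and desmoplakin (DSP) connects this plaque to keratin. DSG2 and DSC2 are the pair found in simple epithelia, the liver included, while DSC3 is best known from stratified epithelia.

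The genes of the 3 cadherins lie in 1 cluster on chromosome 18, and their promoters are shown with that of DSP because these 4 genes had the largest differences between the arrays labelled SNU449 and Hep3B. The sequences are from RefSeq on GRCh38.p14, which held an entry for 6 of the 8 genes. Each runs 5′ to 3′ on the gene's strand from 250 bases before the start site to 50 after it. Capitals mark CAGGTG on either strand, the E-box to which repressors of the ZEB and SNAI families bind.
DSC2 chr18:31102372-31102671 (- strand): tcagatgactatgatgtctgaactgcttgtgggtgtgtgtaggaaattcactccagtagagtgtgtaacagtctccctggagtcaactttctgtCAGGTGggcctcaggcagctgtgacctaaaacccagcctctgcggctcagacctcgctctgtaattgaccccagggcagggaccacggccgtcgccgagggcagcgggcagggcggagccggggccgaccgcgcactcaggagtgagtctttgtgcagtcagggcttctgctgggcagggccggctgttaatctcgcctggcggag
DSC3 chr18:31042693-31042992 (- strand): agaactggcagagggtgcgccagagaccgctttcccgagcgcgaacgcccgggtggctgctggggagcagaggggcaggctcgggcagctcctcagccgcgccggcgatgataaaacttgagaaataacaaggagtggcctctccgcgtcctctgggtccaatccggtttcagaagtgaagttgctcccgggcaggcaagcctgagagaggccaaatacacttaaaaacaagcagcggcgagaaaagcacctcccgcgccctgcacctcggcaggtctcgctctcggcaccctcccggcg
DSG2 chr18:31497927-31498226 (+ strand): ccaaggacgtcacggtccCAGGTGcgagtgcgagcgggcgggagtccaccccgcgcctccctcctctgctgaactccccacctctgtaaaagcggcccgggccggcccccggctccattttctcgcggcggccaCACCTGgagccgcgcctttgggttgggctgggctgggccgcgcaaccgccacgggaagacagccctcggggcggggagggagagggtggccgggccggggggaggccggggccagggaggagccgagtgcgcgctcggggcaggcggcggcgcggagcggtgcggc
DSP chr6:7541421-7541720 (+ strand): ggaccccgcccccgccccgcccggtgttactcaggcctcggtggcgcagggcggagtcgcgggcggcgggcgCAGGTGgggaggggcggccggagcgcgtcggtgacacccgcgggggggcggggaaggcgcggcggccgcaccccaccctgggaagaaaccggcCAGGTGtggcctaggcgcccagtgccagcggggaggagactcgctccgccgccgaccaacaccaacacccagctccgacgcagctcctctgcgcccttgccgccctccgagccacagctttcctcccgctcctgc
The DSC2 promoter held 1 match, at position -156 from the start site, DSG2 and DSP held 2 each, and DSC3 held none. A match was present in 20.6% of all 35116 RefSeq promoters of this length, and 2 or more in 3.49%. RefSeq lists a second start for DSC2, whose promoter held none, and for JUP, whose promoter held 2, while the first JUP promoter and both of PKP4 held none. The E-box of MYC, CACGTG, the AP-1 site TGANTCA and the grainyhead site AACCGGTT, searched on both strands, had no match in any promoter entry of the desmosome genes. They were found in 7.26%, 7.71% and 0.134% of all promoters. A match describes these letters and not a bound site.

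The labels Hep3B and SNU449 ran against the arrays that carry them. Hep3B is known to lack RB1 and to make plasma proteins, yet the mean log2 signal of RB1 on the control arrays was 9.47 under the label Hep3B, 4.44 under SNU449 and 8.57 in PLC. Albumin (ALB) was at 3.03, 13.76 and 10.61. Not every gene followed this pattern, since the plasma protein gene FGB stood at 11.47, 6.88 and 11.52, and FN1, a mesenchymal marker, at 10.93, 12.04 and 11.45. The mean of the 7 hepatocyte markers measured lay between 5.57 and 5.78 on the control arrays labelled Hep3B, at 11.0 on those labelled SNU449 and between 9.82 and 9.85 in PLC. The mesenchymal markers ran from 10.7 to 10.8, 6.95 to 7.01 and 8.24 to 8.27. Line names below are those of the labels, and each knockdown comparison lies within 1 label. Squamous markers, of 4 genes, had array means of 4.10 to 4.69 throughout, and leukocyte markers, of 3 genes, 4.13 to 5.08. ATAD2 fell from 8.96 to 5.17 in Hep3B, from 9.22 to 6.83 in SNU449 and from 9.71 to 7.09 in PLC (limma, adjusted p = 2.19e-10, 9.21e-07 and 3.4e-07). RNA quality, read as the 5′ minus 3′ log2 signal of ACTB and GAPDH, differed between arrays. It was -1.15 and -1.09 on the PLC siRNA replicates 1 and 3, against -0.45 on replicate 2 and -0.59 to -0.44 on the PLC controls. In Hep3B it was -0.42 on the siRNA replicate 2 and -0.79 to -0.65 on the other 5 arrays. RNA from whole cultures was measured, so that a lower signal from fewer expressing cells and one from less RNA per cell cannot be told apart.

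DSC2, the desmocollin of simple epithelia, was higher on every siRNA array than on every control array in Hep3B and in PLC. In Hep3B its lead probe set 226817_at had log2 signals of 8.21, 8.18 and 8.20 with control siRNA and 9.68, 9.96 and 9.65 with ATAD2 siRNA. In PLC the signals were 7.50, 7.35 and 7.43 on control arrays and 8.20, 8.21 and 8.14 on siRNA arrays. The groups were far apart in both lines, by 1.57 log2 units or 2.96-fold in Hep3B and by 0.75 or 1.69-fold in PLC. In SNU449, where the gene was dim, the signals were 4.74, 4.89 and 4.74 against 4.85, 4.84 and 4.88, and the groups overlapped with a difference of 0.07. These differences chose the gene set and are not tested. Among the lead probe sets of all 19775 genes, 3 had a larger rise than DSC2 in Hep3B, 9 in PLC and 3752 in SNU449. These ranks come from the values that chose DSC2, so they describe its rise and are no further evidence for it.

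**Figure D1:**
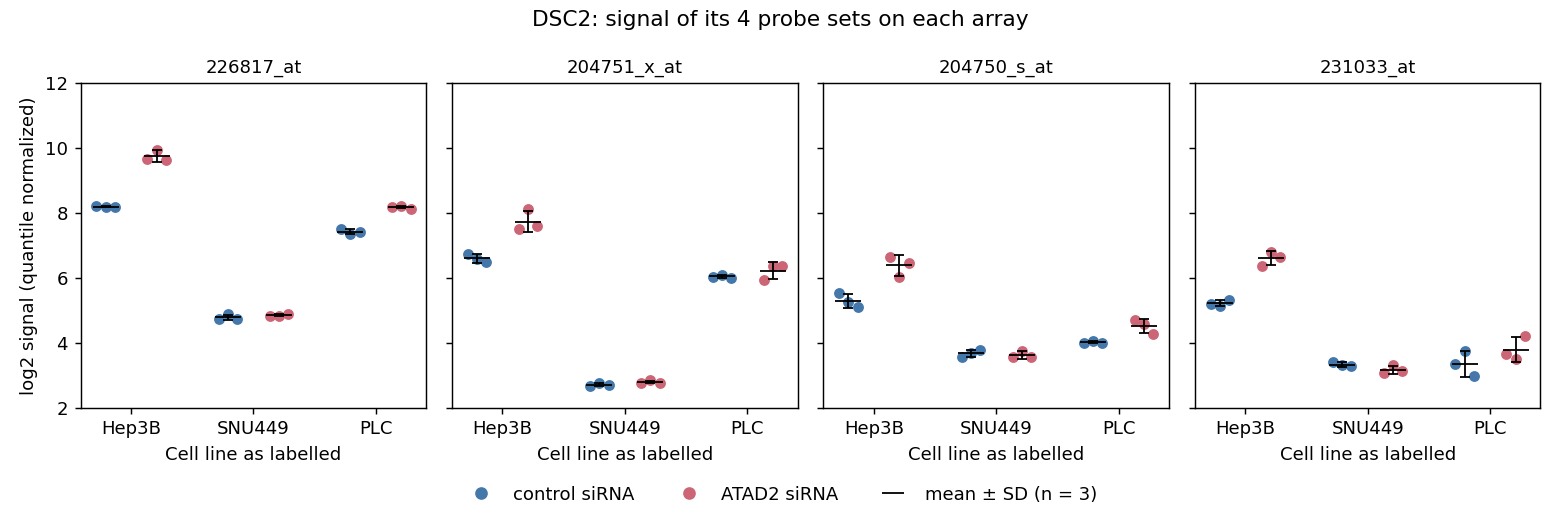
The log2 signal of the 4 DSC2 probe sets (y axis) is plotted for each of the 18 arrays by labelled cell line (x axis), with control siRNA in blue, ATAD2 siRNA in red and black marks for the mean ± SD (n = 3). In Hep3B the siRNA arrays lie above the control arrays for every probe set, in PLC for 226817_at and 204750_s_at, and in SNU449 the groups are close together.

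The other 3 DSC2 probe sets were also higher after knockdown in Hep3B, without overlap. Probe set 231033_at read 5.21, 5.15 and 5.32 without knockdown and 6.37, 6.81 and 6.64 with it, a difference of 1.38. The differences for 204751_x_at and 204750_s_at were 1.14 and 1.09. In PLC the probe sets were less alike. For 204750_s_at the control arrays read 4.01, 4.07 and 3.99 and the siRNA arrays 4.70, 4.59 and 4.29, a difference of 0.50 without overlap. For 204751_x_at, whose suffix marks probes that may match other transcripts, the siRNA replicate 1 at 5.93 lay below all 3 controls, the highest at 6.10, and the other 2 at 6.38 and 6.37 lay above them. For 231033_at the siRNA arrays at 3.66, 3.49 and 4.23 overlapped controls spread from 2.97 to 3.77. In SNU449 the differences of 204751_x_at, 204750_s_at and 231033_at were 0.09, -0.05 and -0.17, near the floor of the arrays. For 204751_x_at the siRNA arrays lay above all controls there, and for the others the groups overlapped. The PLC siRNA replicates 1, 2 and 3, at 8.20, 8.21 and 8.14 for the lead probe set, had 5′ minus 3′ values of -1.15, -0.45 and -1.09. The mean of the 5 epithelial markers moved with DSC2 in Hep3B, which spanned 5.35 to 5.49 without and 5.51 to 5.78 with knockdown. Of these markers KRT8 and KRT18 passed the test there, while EPCAM and CDH1 stood at 2.73 and 3.60 before and 2.75 and 3.60 after knockdown. In PLC the marker mean was lower after knockdown, 8.31 to 8.60 against 8.67 to 8.84. Their part in the result was not tested.

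None of the other 7 genes passed the test in any line. Of the 7 lead probe sets, 0 were called in Hep3B, 0 in SNU449 and 0 in PLC (limma, adjusted p over all probe sets), and 2, 1 and 2 had an unadjusted p under 0.05. Among the lead probe sets of all genes, 14% were called in Hep3B, 0.142% in SNU449 and 3.58% in PLC. The median log2 change of the 7 genes was -0.09 in Hep3B, -0.055 in SNU449 and 0.02 in PLC, beside medians of -0.02, -0.02 and 0.01 over all genes. With all 16 probe sets of these genes, again 0 were called in each line, with 3, 2 and 3 at an unadjusted p under 0.05, against 11.8%, 0.0876% and 3.73% of all probe sets. The siRNA arrays lay wholly to one side of the control arrays for 5 of the 16 in Hep3B, 4 in SNU449 and 1 in PLC. The same held for 29.3%, 20.5% and 17.8% of all probe sets. No gene of the 7 differed between the lines in its response (F test over the lines, smallest adjusted p = 0.167), while 7.33% of all genes did, and 3 of the 7 had an unadjusted p under 0.05.

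**Figure D2:**
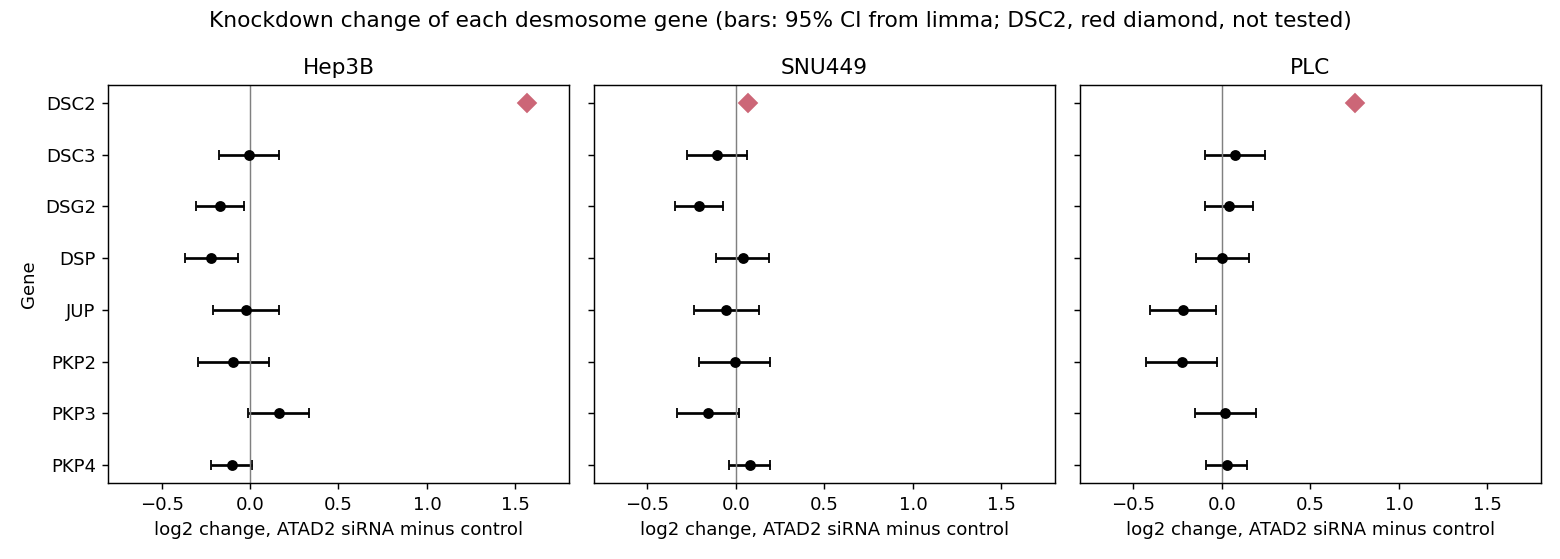
The difference in log2 signal between ATAD2 siRNA and control arrays (x axis) is shown for the lead probe set of each desmosome gene (y axis) in each labelled cell line, with bars for the 95% confidence interval from limma. The intervals of the 7 tested genes reach no lower than -0.43 and no higher than 0.34, and DSC2, drawn as a red diamond without an interval because its rise chose the genes, stands at 1.57 in Hep3B and 0.75 in PLC.

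Among the cadherins, DSC3 was the nearest relative of DSC2 and lies next to it. Its lead probe set 206032_at read 9.44, 9.48 and 9.49 on Hep3B control arrays and 9.40, 9.55 and 9.45 on siRNA arrays. The groups overlapped, and the 95% interval of the difference ran from -0.18 to 0.16. In PLC it read 6.44, 6.39 and 6.28 against 6.51, 6.23 and 6.60, an interval of -0.10 to 0.24, and in SNU449 it read 3.90, 3.90 and 3.96 against 3.83, 3.82 and 3.79. The dimmer probe set 244107_at gave another picture in Hep3B. It read 6.03, 5.89 and 6.03 with control siRNA and 6.27, 6.47 and 6.12 with ATAD2 siRNA, without overlap, a difference of 0.30 ± 0.12 (SE; limma, adjusted p = 0.107). The third probe set, 206033_s_at, differed by 0.04 in Hep3B, -0.02 in SNU449 and -0.20 in PLC, where it was -0.29 with an adjusted p of 0.00949 without the siRNA replicate 2.

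DSG2, the desmoglein that pairs with DSC2 in simple epithelia, was slightly lower in 2 lines without passing the test. In Hep3B 217901_at read 10.65, 10.56 and 10.62 on control arrays and 10.39, 10.51 and 10.42 on siRNA arrays, which lay below all controls by -0.17 ± 0.06 (SE; limma, adjusted p = 0.105). In SNU449 it read 8.82, 8.66 and 8.74 against 8.45, 8.62 and 8.52, also without overlap, a difference of -0.21 ± 0.06 (adjusted p = 0.299). In PLC the values of 9.61, 9.60 and 9.62 were overlapped by 9.70, 9.56 and 9.68. The second DSG2 probe set, 1553105_s_at, overlapped in every line, with differences of -0.08, 0.05 and -0.12 in Hep3B, SNU449 and PLC.

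DSP, the plakin that anchors keratin, came closest to the threshold. In Hep3B it read 8.67, 8.73 and 8.66 on control arrays and 8.35, 8.64 and 8.42 on siRNA arrays, a difference of -0.22 ± 0.07 (SE; limma, adjusted p = 0.054) with an interval of -0.37 to -0.07. All siRNA arrays lay below all controls, and replicate 2 was the nearest to them. Without that array, whose 5′ minus 3′ value stood apart from the other Hep3B arrays, the difference was -0.31 with an adjusted p of 0.00398, and without the PLC siRNA replicate 2, which alters the pooled spread, the adjusted p was 0.0494. Over all 32 settings tried the adjusted p ran from 0.00398 to 0.42. In SNU449 DSP read 11.05, 10.95 and 10.96 against 11.07, 11.03 and 10.97, and in PLC 10.79, 10.77 and 10.68 against 10.78, 10.76 and 10.70. The groups overlapped in these 2 lines, with differences of 0.04 and 0.00.

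No plaque gene of the armadillo family passed the test in any line in the main fit. In PLC the limma confidence intervals of JUP (-0.404 to -0.035) and PKP2 (-0.428 to -0.026) nevertheless lay below 0. JUP, which is shared with adherens junctions, overlapped in Hep3B and SNU449 with differences of -0.02 and -0.06. In PLC it read 7.42, 7.37 and 7.22 on control arrays and 7.09, 7.12 and 7.15 on siRNA arrays, which lay below all controls by -0.22 ± 0.09 (SE; limma, adjusted p = 0.163). PKP2, the plakophilin of simple epithelia and heart, had differences of -0.09 in Hep3B and -0.01 in SNU449. In PLC 207717_s_at read 7.40, 7.10 and 7.13 against 6.79, 7.17 and 6.99, where replicate 2 lay inside the control range and the other 2 below it. That difference was -0.23 ± 0.09 (adjusted p = 0.186), and without the PLC siRNA replicate 2 it was -0.32 with an adjusted p of 0.0319. The 2 arrays left by this omission are those with the low 5′ minus 3′ values. With all arrays and a covariate for the 5′ minus 3′ signal, 0 of the 7 genes were called in PLC. The part of the low values in the result of the omission was not tested. The second PKP2 probe set, 214154_s_at, overlapped in every line.

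PKP3 is a plakophilin of many epithelia. In Hep3B 209873_s_at read 7.58, 7.53 and 7.57 on control arrays and 7.81, 7.71 and 7.64 on siRNA arrays, a difference of 0.16 (interval -0.01 to 0.34) without overlap. In SNU449 it read 6.55, 6.47 and 6.45 against 6.34, 6.53 and 6.12, a difference of -0.16 with overlap. The second probe set, 209872_s_at, differed by 0.17 in Hep3B and 0.05 in SNU449, and neither probe set passed the test in any line. For 209873_s_at the test of a difference between lines gave an adjusted p of 0.213 (limma). PKP4, also known as p0071 and found at adherens junctions as well as desmosomes, read 10.11, 10.19 and 10.12 against 10.08, 9.99 and 10.04 in Hep3B for 201928_at, lower without overlap by -0.10 (adjusted p = 0.295). Its differences in SNU449 and PLC were 0.08 and 0.03. The other 4 PKP4 probe sets differed by -0.24 to 0.16 over the lines and none was called, though without the PLC siRNA replicate 2 the difference of 214874_at in PLC was 0.35 with an adjusted p of 0.01.

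**Figure D3:**
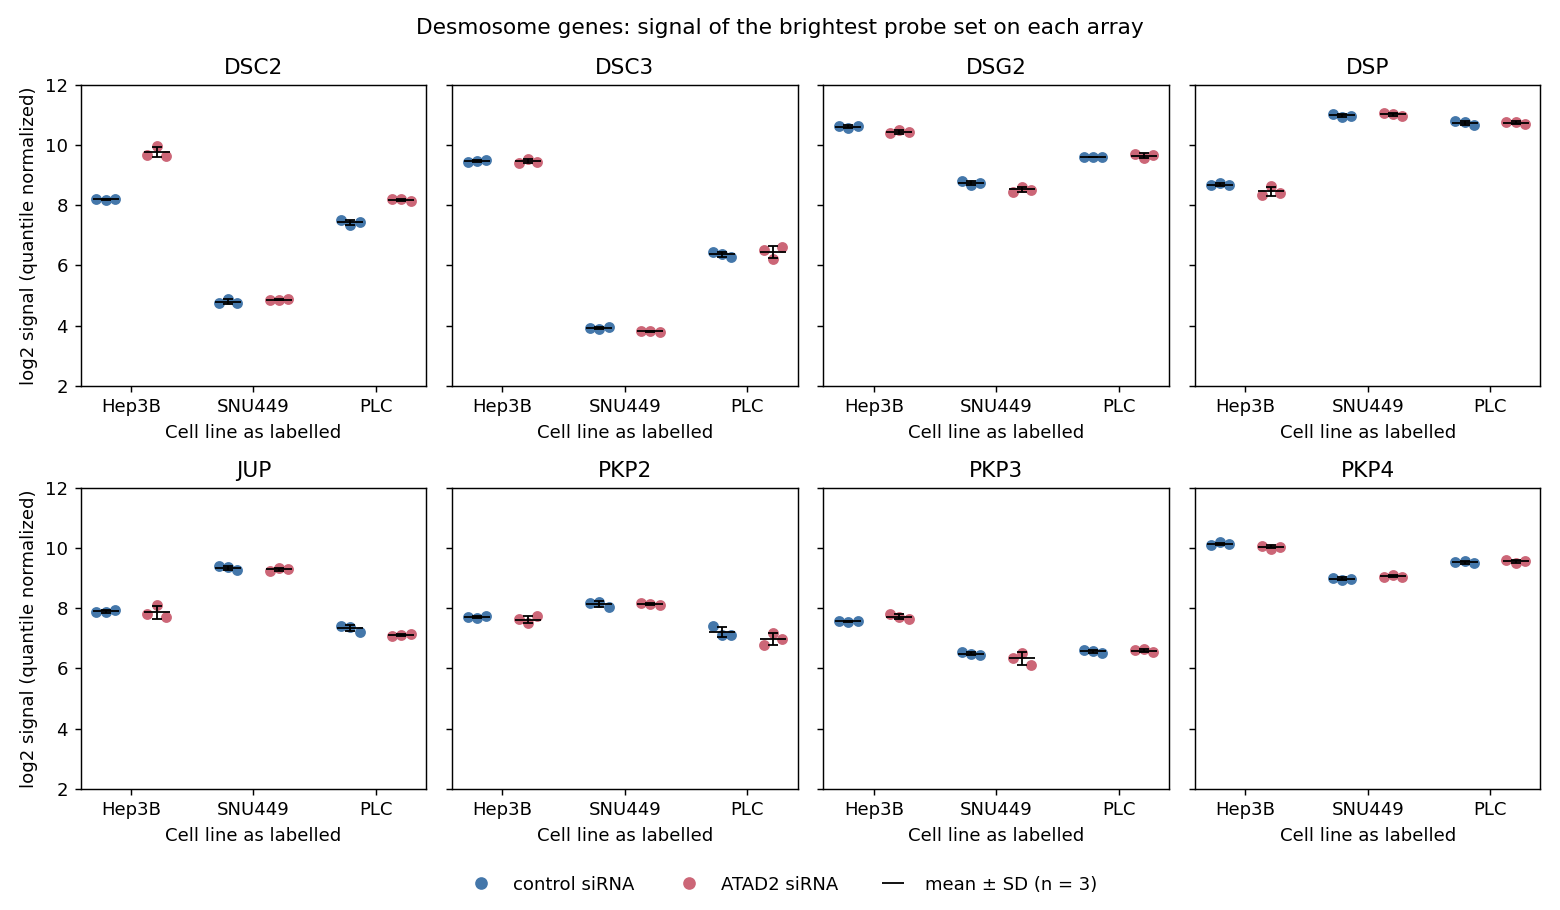
The log2 signal of the lead probe set of each desmosome gene (y axis, quantile normalized over all arrays) is plotted for each array by labelled cell line (x axis), with control siRNA in blue, ATAD2 siRNA in red and black marks for the mean ± SD (n = 3). The widest difference between lines exceeds the differences between siRNAs for every gene, and only DSC2 shows siRNA arrays far above their controls; signals of different genes are not comparable, and for every gene but DSC3 the place of PLC against Hep3B or SNU449 changes with the scaling of the arrays.

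The comparisons of lines before knockdown used the control arrays and asked for an adjusted p under 0.05 and an absolute log2 difference of at least 1. Between SNU449 and Hep3B, 7 of the 8 lead probe sets passed, 2 higher and 5 lower in SNU449, beside 19.7% of all genes (1828 higher and 2070 lower). Between PLC and Hep3B 3 passed, 1 higher and 2 lower in PLC, beside 18.4% of all genes. Between SNU449 and PLC 3 passed, 1 higher and 2 lower in SNU449, beside 19.2%. DSC2 is among the genes that passed for SNU449 against Hep3B and against PLC. Its control values entered the rise that chose the genes, so its tests here are not independent of that choice. Over all 20 probe sets the counts were 14, 9 and 9, beside 18.7%, 17.8% and 18.8% of all probe sets.

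The cadherins were highest under the label Hep3B, though DSC2 and DSG2 changed order between Hep3B and PLC with median centring. DSC3 showed the widest range, with means of 9.47 ± 0.03 (SD, n = 3) in Hep3B, 6.37 ± 0.08 in PLC and 3.92 ± 0.03 in SNU449. It was lower in SNU449 than in Hep3B by -5.55 (limma, adjusted p = 6.76e-19), and 8.59-fold lower in PLC than in Hep3B (adjusted p = 1.71e-15). Under the other 3 scalings the difference between SNU449 and Hep3B was smaller, -5.01 to -5.22. The DSC2 lead probe set ran in the same order, at 8.20, 7.43 and 4.79, with a difference of -3.41 between SNU449 and Hep3B (adjusted p = 1.74e-16). That difference was -2.79 to -3 under the other 3 scalings. A low signal in SNU449 may understate the differences of DSC3 and DSC2, while the scaling used here gave the largest ones. The DSC2 probe sets 204751_x_at, 204750_s_at and 231033_at differed by -3.90, -1.62 and -1.89 between SNU449 and Hep3B. Between SNU449 and PLC they differed by -3.34, -0.34 and -0.02. Over the settings 204750_s_at ran from -0.68 to 0.78 and 231033_at from -0.84 to 0.62 for SNU449 against PLC. For the DSC2 lead probe set the difference between PLC and Hep3B was -0.77 and turned to 0.30 when each array was centred on its median. DSG2 stood at 10.61, 9.61 and 8.74 in Hep3B, PLC and SNU449. It was 3.65-fold lower in SNU449 than in Hep3B (adjusted p = 6.37e-14), and its difference of -1.003 between PLC and Hep3B sat on the limit of 1. It turned to 0.37 with median centring, was -0.88 in the values as deposited, and fell short of the limit without the Hep3B control replicates 1 or 3, the PLC control replicates 1 or 2 or the PLC siRNA replicate 2 (-0.979 to -0.999). By lead probe set the cadherin signals were thus lowest under the label that carried the highest epithelial markers. The marker means were 11.1 on the SNU449 control arrays, 8.67 to 8.84 in PLC and 5.35 to 5.49 in Hep3B.

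DSP and JUP ran the other way. DSP had means of 8.69 in Hep3B, 10.75 in PLC and 10.99 in SNU449, 4.91-fold higher in SNU449 than in Hep3B (limma, adjusted p = 1.47e-14) and 4.16-fold higher in PLC (adjusted p = 7.84e-14). Both differences kept their sign under all 3 other scalings, while SNU449 and PLC, 0.24 apart, changed order with median centring (-1.39). JUP was 2.73-fold higher in SNU449 than in Hep3B (adjusted p = 1.45e-10) and 4.02-fold higher than in PLC (adjusted p = 2.08e-12), which kept their sign, while PLC against Hep3B went from -0.56 to 0.46 with median centring.

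The plakophilins differed less. PKP2 differed by 0.42 between SNU449 and Hep3B and by 0.93 between SNU449 and PLC, short of 1 log2 unit, and the latter turned to -0.14 with median centring. PKP3 was lower by -1.07 in SNU449 than in Hep3B (limma, adjusted p = 4.1e-09) but short of 1 log2 unit under the other 3 scalings (-0.76 to -0.97). SNU449 and PLC did not differ beyond their spread (-0.08, adjusted p = 0.377), and that last difference was 0.70 in the values as deposited. PKP4 was lower by -1.15 in SNU449 than in Hep3B for 201928_at (adjusted p = 5.91e-12), but its probe sets did not give 1 order of the lines. For the same pair 201927_s_at differed by -0.04 and 240379_at by -1.32. Between SNU449 and PLC 201927_s_at differed by 1.38 and 240379_at by -1.46, both past the threshold in opposite directions. The other scalings moved the median difference of all genes between PLC and Hep3B from -0.02 to -0.62 in the values as deposited and to 0.62 with median centring, so that small differences that involve PLC have no settled sign. For SNU449 against Hep3B the median moved to at most 0.15, and all 8 lead probe sets kept their sign.

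Over the 18 arrays the signals of several genes ran in parallel, which mostly restates the differences between the lines that all 18 points share. Pearson's r was 0.918 between DSC2 and DSC3, 0.991 between DSC3 and DSG2, -0.927 between DSC3 and DSP, -0.983 between DSP and PKP3, and 0.93 between JUP and PKP2. Of 15741 genes with a standard deviation of at least 0.2, those most like DSC2 were CREBL2 (r = 0.99), RNF217 and BLCAP (0.989 each), SLC71A1 (0.988) and ADAP2 (0.987). After the mean of each line was subtracted, the DSC2 signal mostly restates the differences between siRNAs that chose the gene. The genes most like it were then OIP5-AS1 (0.978), CEMIP2 (0.975), ERRFI1 (0.971), SRPRB (0.969) and DESI2 (0.961). The last of these differed by 1.16 in Hep3B, 0.29 in SNU449 and 0.63 in PLC. The single gene most like each other member was GNG11 for DSC3 (0.999), STAT6 for DSG2 (0.995), FRY for DSP (0.997), SALL2 for JUP (0.996), TRAPPC5 for PKP2 (0.976), KRABD1 for PKP3 (0.989) and CDC42BPB for PKP4 (0.997). These are descriptions over 18 arrays and carry no test.

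The surroundings of the desmosome were read from 5 lists with 61 genes in all. Over all genes 14% were called in Hep3B, 0.142% in SNU449 and 3.58% in PLC, and the counts of each list stand beside these shares. Among 9 other desmosomal genes, 1 fell in Hep3B, a share near that of all genes, and none passed in SNU449 or PLC. It was PERP, a p53 target needed for desmosome assembly, at 12.03 on control and 11.53 on siRNA arrays, a change of -0.50 ± 0.08 (SE; limma, adjusted p = 0.00055), with a difference between lines (interaction adjusted p = 0.0266). The medians over these 9 genes were -0.10, -0.02 and -0.18 in Hep3B, SNU449 and PLC. On the control arrays PPL, the plakin periplakin, stood at 8.43 in Hep3B, 8.43 in SNU449 and 4.25 in PLC.

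Keratins, the filaments that desmosomes hold, changed in both directions in Hep3B. Of 12 keratin, vimentin and plakin genes 2 rose and 3 fell, beside 14% of all genes called either way, and the list's medians were 0.03 in Hep3B, 0.06 in SNU449 and -0.16 in PLC. KRT7, a keratin of simple and ductal epithelia, fell from 11.11 to 10.03, by -1.08 ± 0.09 (SE; limma, adjusted p = 7.55e-07), and KRT80 fell from 9.67 to 8.86 (adjusted p = 1.51e-05). KRT8, the partner of KRT18 in hepatocytes, rose from 7.02 to 7.53 (adjusted p = 0.0196), and KRT18 rose from 10.30 to 10.68 (adjusted p = 0.0115). The cytolinker plectin (PLEC) fell by 0.39 (adjusted p = 0.007). In PLC KRT20 alone passed, from 9.44 to 9.02 (adjusted p = 0.00962), and in SNU449 none did. The lines differed in the response of KRT7 (interaction adjusted p = 1.23e-05), KRT80 (0.000522), KRT8 (0.0183) and KRT20 (0.0103).

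Of 13 adherens junction genes measured, 4 rose and 1 fell in Hep3B, none passed in SNU449 and 2 fell in PLC, beside 14%, 0.142% and 3.58% of all genes, with medians of 0.03, 0.00 and 0.05. NECTIN2 and NECTIN3, which initiate cell contacts, rose in Hep3B by 0.42 and 0.36 (limma, adjusted p = 0.000366 and 0.00124), and the actin binder LIMA1 rose by 0.30 (adjusted p = 0.0119). AJUBA, a LIM protein of junctions, fell from 10.56 to 9.92 in Hep3B (adjusted p = 1.53e-05) and from 11.40 to 11.12 in PLC (adjusted p = 0.0442). CDH1, E-cadherin, fell in PLC from 7.95 to 7.38 (adjusted p = 0.0215). Beside the lower mean of the 5 epithelial markers in PLC, of which CDH1 is one, the hepatocyte mean went from 9.82 to 9.85 on control arrays to 9.38 to 9.50 on siRNA arrays. Their part in the result for CDH1 was not tested.

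Among 14 measured transcription factors of the epithelial and mesenchymal states, 3 rose in Hep3B, 1 in SNU449 and none in PLC, and none fell, where 14%, 0.142% and 3.58% of all genes were called either way. The medians of this list were -0.01, -0.06 and 0.02. KLF4, an epithelial differentiation factor, rose from 6.97 to 8.09 in Hep3B (limma, adjusted p = 1.39e-07) and from 6.02 to 6.53 in SNU449 (adjusted p = 0.0231). In PLC it differed by 0.05 (adjusted p = 0.793). Its response differed over the 3 lines (F test, interaction adjusted p = 1e-04), a test that does not compare Hep3B with SNU449 alone. GRHL1, a grainyhead factor with a role in epidermal desmosomes, rose from 5.14 to 5.82 in Hep3B (adjusted p = 0.000392), and KLF5 rose from 6.10 to 6.54 (adjusted p = 0.0189). ZEB1 belongs to a family of repressors that bind the E-box CAGGTG, and its binding to any promoter was not measured here. It had means of 9.00, 4.08 and 8.60 on the control arrays of Hep3B, SNU449 and PLC. After knockdown it stood at 8.97, 4.01 and 8.72 (adjusted p = 0.923, 0.995 and 0.469). Of 11 regulators of desmosome assembly and turnover, 4 rose and 2 fell in Hep3B, beside 14% of all genes, and none passed elsewhere, with medians of 0.10, 0.01 and 0.08. PRKCA, a kinase that loosens desmosomes, fell by 0.37 (adjusted p = 0.0014). ADAM17, a sheddase that cuts desmogleins, rose by 0.35 (adjusted p = 0.00101), and the calcium pumps ATP2C1 and ATP2A2 rose by 0.32 and 0.31 (adjusted p = 0.0041 and 0.045).

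**Figure D4:**
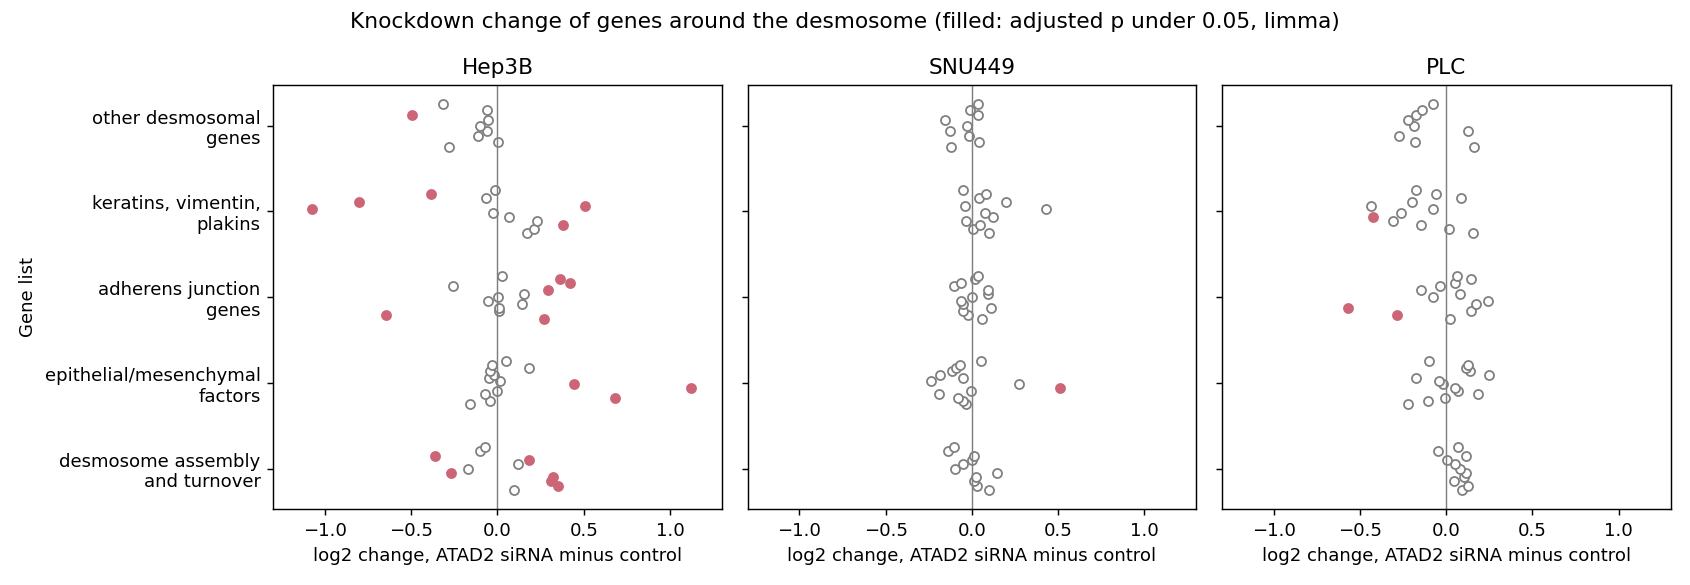
Each point is the difference in log2 signal between ATAD2 siRNA and control arrays (x axis) for the lead probe set of 1 gene in 5 lists (y axis) and the 3 labelled cell lines, filled red where limma's adjusted p was under 0.05. Filled points lie on both sides of 0 in Hep3B, for example KLF4 at 1.12 and KRT7 at -1.08, while SNU449 has 1 filled point (KLF4) and PLC has 3 (KRT20, CDH1 and AJUBA).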

How the data were processed

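Total RNA was measured on arrays with the probe sets of Affymetrix HG-U133 Plus 2. The authors deposited 1 table of log2 values for 54675 probe sets and 18 arrays; the log2 scale was judged from the range of 1.33 to 14.0, and no source used here gives the background correction, normalization or centring. The submitters' processing notes name limma, without a version. Array medians were 5.36 to 5.62 in Hep3B and SNU449 and 4.14 to 4.21 in PLC, and sorted columns differed by up to 0.155 within a line and 1.51 between lines, so the values were quantile normalized over all 18 arrays. Genes came from the platform annotation, which gave 1 gene to 41097 probe sets, several to 1801 and none to 11777.

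A linear model with 6 group means was fitted to all 41097 probe sets in limma 3.58.1 under R 4.3.3, with lmFit and then eBayes on 12 residual and 4.05 prior degrees of freedom. P-values were two-sided and adjusted by the Benjamini-Hochberg method over all of them, with a threshold of 0.05. An exact permutation test of 3 against 3 arrays cannot give a two-sided p under 0.1, and none is reported. The number of arrays limits the precision, and a p-value reflects only the spread between arrays labelled as biological replicates. Arrays of a group correlated at 0.987 to 0.998, and no 2 columns were identical. Equal replicate numbers gave little sign of pairing, since 0 of 9 pairs correlated above 0.1 (-0.114 to 0.077). Of the 9 control arrays, 5 correlated best with the siRNA array of their own number, among them PLC replicates 1, 2 and 3 (0.077, 0.045 and 0.072). Weak pairing is therefore not excluded, and the main fit did not use it.

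The genes and lists were chosen with earlier results of these data known. All 8 genes and all their probe sets are named, with ATAD2, the genes most like each by Pearson's r, and in each comparison up to 4 genes per list, ranked by size among those past the threshold; KRT18 was named after its values were seen. The fit was tested on simulated data. Alternatives were other scalings, gene summaries, filters on dim probe sets, line-wise fits, another prior, array weights, a replicate block, a threshold of 0.01, the omission of each array and, added after the values were seen, a covariate for the 5′ minus 3′ signal.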

Additional observations from a re-analysis of the deposited data

Results flagged for a closer look

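For 3 probe sets of PKP4 every siRNA array lay above the mean of its control arrays in one line and below it in another. For 201928_at the difference was 0.08 in SNU449 and -0.10 in Hep3B. For 214874_at it was 0.05 in SNU449 and -0.09 in Hep3B, and for 240379_at it was 0.03 in PLC, -0.12 in Hep3B and -0.09 in SNU449. These opposite directions between pairs of lines were not tested. The F test over all 3 lines gave limma adjusted p-values of 0.30, 0.643 and 0.658, and none of the differences within a line passed the test. The other 2 PKP4 probe sets did not show the pattern. Groups of 3 arrays are too small for a check of single arrays that stand apart.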

How the results depend on the processing

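Over the 32 settings, 1 of them added after the values were seen, the count of genes called in Hep3B was 0 to 2. It was 1 with arrays centred on their median (PKP3), and 1 (DSP) with 1 lead probe set per gene, a mean over each gene's probe sets, the dimmest 30% left out, array weights or the 5′ to 3′ covariate. It was 2 (DSG2 and DSP) with the dimmest 50% left out or an intensity trend with a robust prior. Leaving out single arrays gave 0 to 1 in Hep3B (DSP, without the Hep3B siRNA replicate 2 or the PLC siRNA replicate 2), 0 to 1 in PLC (PKP2, without the PLC siRNA replicate 2) and 0 to 1 for a response that differs between lines (DSP, without the Hep3B siRNA replicate 2). That last count was also 1 with array weights. No setting gave a call in SNU449. The replicate block changed none of these counts from 0.

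For SNU449 against PLC the count was 5 with median centring, beside 3, and 3 to 4 otherwise. For SNU449 against Hep3B it was 6 under the other 3 scalings (without PKP3) and 5 with gene means (without PKP3 and PKP4), beside 7. For PLC against Hep3B it was 2 to 4, beside 3, and DSG2 was lost under the other 3 scalings, array weights, the 5′ to 3′ covariate and 5 single omissions. Median centring turned DSG2 between PLC and Hep3B to 0.368 and DSP between SNU449 and PLC to -1.389. The values as deposited and quantile normalization within lines turned PKP2 214154_s_at between PLC and Hep3B to -1.231 and -1.20, and PKP3 209872_s_at between SNU449 and PLC to 1.324 and 1.29. The cause was not tested.

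The DSC2 difference in PLC was 0.839 in the deposited values, 0.883 with quantile normalization within lines, 0.815 with median centring, 0.828 with the 5′ to 3′ covariate and 0.466 as the mean of its probe sets. That mean gave 1.293 in Hep3B and -0.015 in SNU449. Without single arrays DSC2 ranged from 1.471 to 1.625 in Hep3B, 0.044 to 0.119 in SNU449 and 0.708 to 0.781 in PLC. A signal near the floor can understate a change. On the SNU449 control arrays the lead probe sets of DSC2 and DSC3 had means of 4.79 and 3.92, at percentiles 39.1 and 21.2 of all probe sets. Whether their low signal hid a response was not tested.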

Other observations

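The desmosomal cadherins lie in 1 run of genes on chromosome 18, and the 10 genes from CDH2 to B4GALT6 were read together, a window chosen after the values were seen. In RefSeq's order they are CDH2, DSC3, DSC2, DSC1, DSG1, DSG4, DSG3, DSG2, TTR and B4GALT6. Of the 9 genes other than DSC2, 1 rose in Hep3B, near the 14% of all genes called there, and none was called in SNU449 or PLC. It was B4GALT6, a galactosyltransferase of glycosphingolipid synthesis at the end of the run, from 8.19 to 8.71 (limma, adjusted p = 0.00576). In PLC it stood at 7.78 and 8.04 (adjusted p = 0.195) and in SNU449 at 4.26 and 4.58 (adjusted p = 0.401). CDH2, N-cadherin, at the other end, stood at 8.89 and 9.03 in Hep3B and at 9.66 and 9.83 in PLC (adjusted p = 0.443 and 0.336). The epidermal genes DSC1, DSG1 and DSG3 were dim in all lines, with group means of 2.51 to 4.52, so that these arrays say little about their response.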
